A study of Mus musculus with 4 samples.

Results

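The genes described are 31 known transcriptional targets of p53 that lie outside the BCL2 family, compared between GC-1 and GC-2, cultured lines of mouse germ cells. They were taken as a list of gene symbols, and all 55 non-control probes whose gene name in the scanner files is one of these symbols were used. They are 31 of 24813 reference genes with a probe. The rule itself uses no measured value, but the list was drawn up with earlier results of these data known. Messenger RNA levels were measured on 4 one-colour Agilent arrays, 2 of GC-1 and 2 of GC-2, and the series gives a single comparison, GC-2 against GC-1.

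GC-1 goes back to type B spermatogonia that were immortalised by the SV40 large T antigen. GC-2 goes back to spermatocytes that received the same antigen together with a p53 mutant whose activity depends on temperature. Both lines therefore carry this antigen, which binds p53 and the retinoblastoma proteins. Each is a single immortalised line. These origins are background knowledge and are not in the labels. Per the labels, both were grown in the same serum-containing medium at 37 °C and harvested close to confluence, and the labels name no agent or DNA damage. Replicates are numbered in the titles without saying whether they were separate cultures, so the p-values reflect no more than the spread of these 4 samples, and that spread could be technical.

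p53 is a transcription factor that is kept low by MDM2-driven degradation and is stabilised after DNA damage and other stress. It binds a response element made of a pair of half-sites and raises genes that stop the cell cycle, repair DNA, restrain growth signalling through mTOR or start cell death. In the testis p53 is known for removing damaged germ cells. Many of its targets also answer to other factors, so their levels do not read p53 activity alone.

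To show what the response element looks like next to these genes, the RefSeq promoter windows (GRCm38.p6, 250 bases before to 50 bases after each annotated start) were searched for the p53 half-site consensus, a 10-base palindrome that reads the same on both strands. Windows were found for 24 of the 31 members, and Trp53inp1, Perp, Zmat3, Tnfrsf10b, Rrm2b, Ddb2 and Xpc had none in the table. A half-site was present for 8 of these 24 genes (33.3%), against 9.55% of all 27025 genes in the table. No member window held a pair of half-sites separated by 0 to 13 bases, which 0.0731% of all 32851 windows did. A match is a sequence description, not a shown binding site. The median GC content was 62.0% over the 33 member windows and 52.7% over all windows. The 8 stretches of 30 bases follow, on the strand of the gene, with the half-site in capitals.
Sesn1: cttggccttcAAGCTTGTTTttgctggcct
Ei24: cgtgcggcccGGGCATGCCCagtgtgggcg
Gadd45a: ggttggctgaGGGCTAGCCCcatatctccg
Ccng1: agacctgcccGGGCAAGCCTtggcactgaa
Ppm1d: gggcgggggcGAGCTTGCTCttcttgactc
Aen: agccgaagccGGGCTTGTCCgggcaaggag
Ddit4l: caactcccagGGGCTTGCCTgggcccctgc
Polk: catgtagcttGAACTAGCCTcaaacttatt

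These stretches lie at chr10:41887256-41887285 (Sesn1, plus strand), chr9:36797325-36797354 (Ei24, minus), chr6:67037428-67037457 (Gadd45a, minus) and chr11:40755452-40755481 (Ccng1, minus). The others lie at chr11:85311112-85311141 (Ppm1d, plus), chr7:78895927-78895956 (Aen, plus), chr3:137623572-137623601 (Ddit4l, plus) and chr13:96519399-96519428 (Polk, minus), all on GRCm38.p6. As given below, Ei24 and Sesn1 were higher in GC-2, Gadd45a was lower, and the other 5 did not pass the test. Among the 24 members with a window, a half-site was thus present for 2 of 5 that rose, 1 of 4 that fell and 5 of 15 that did not pass.

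Levels are given as the processed Cy3 signal of a probe divided by the 75th percentile of its array, so that a level of 1 is the array's 75th percentile. Values of one gene can be compared between arrays, but not between genes. That percentile was 666 and 693 in GC-1 but 416 and 199.9 in GC-2, and no spot was saturated. Every change is GC-2 minus GC-1 on the log2 scale with its SE (n = 2 arrays per line). It was tested with limma across 36692 probes, with Benjamini-Hochberg adjustment and a threshold of 0.05. A gene is read from its brightest tested probe unless said otherwise.

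All 31 members had a probe that could be tested, and 30 were well above background on all 4 arrays. Eda2r was the exception, and its call uses GC-1 signals that were not above background. In GC-2, 6 members were higher (19.4%) and 5 were lower (16.1%), and 20 did not pass. Of all 17437 genes tested, 18.3% were higher and 25.7% lower, 44.1% in either direction. Of the members 35.5% passed in either direction. The levels of the lines did not overlap for 19 of the 31 members, against 77.9% of all genes. Their median change was -0.12 and that of all genes -0.13. Without GC-2 replicate 2 these medians were 0.29 and -0.16, and without GC-2 replicate 1 they were -0.43 and -0.10. Before scaling, the signals of the 2 lines did not overlap for 3 of the 6 members that rose and for all 5 that fell. Both GC-2 arrays were dimmer as a whole, which by itself sets falls apart and brings rises together. These counts therefore do not compare rises with falls, and the share over all genes was not computed. In bulk RNA, fewer cells that express a gene and less RNA per cell cannot be told apart. Sesn1, Dram1 and Ei24 turned with the scaling. On this scale the 8 probes for E1A spike-in RNA stood 2.07 log2 units higher in GC-2 (SD 0.46). Scaled to them, 2 members were higher and 26 lower, as were 644 and 15156 of all 17437 genes.

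**Figure D1:**
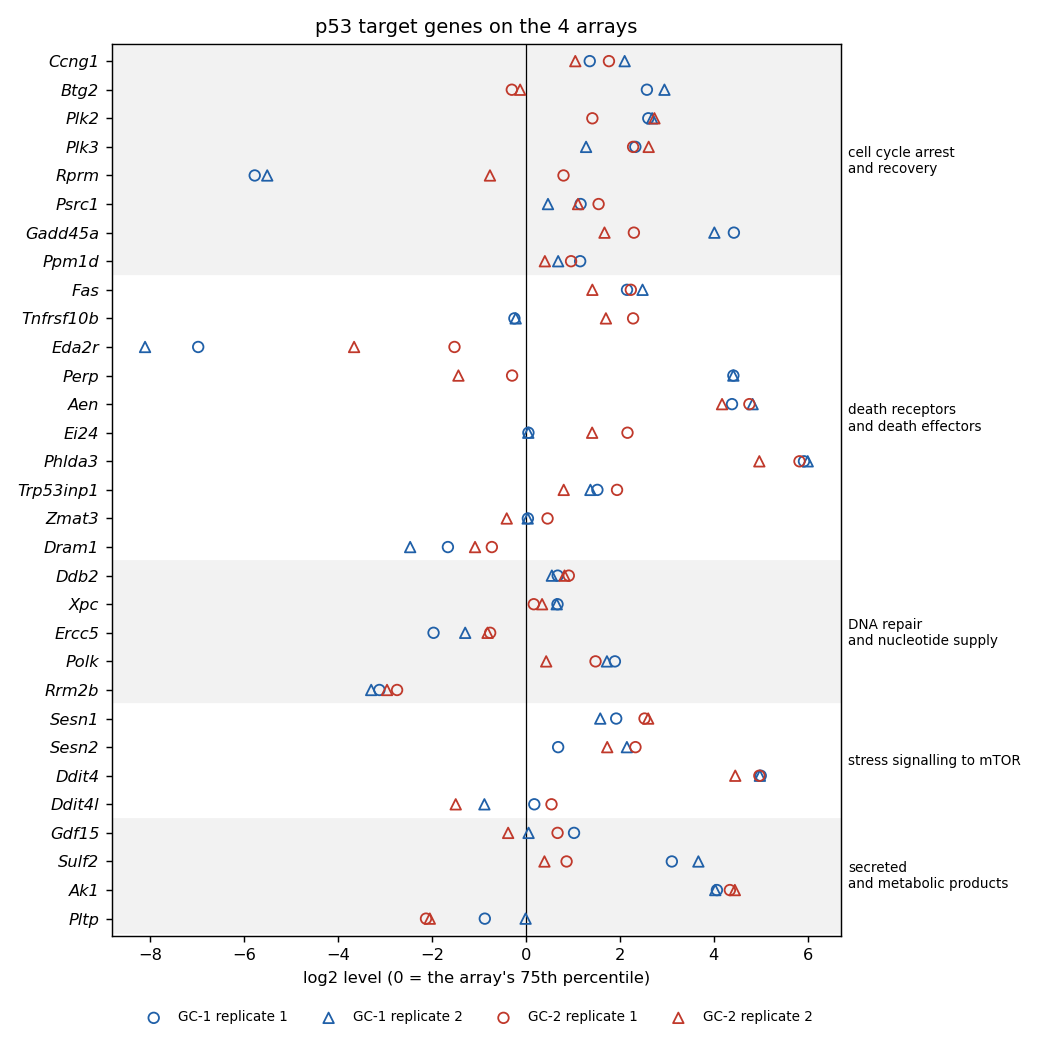
Each row is a p53 target gene, grouped by role, and each symbol is its log2 level on 1 array, with 0 at that array's 75th percentile (blue GC-1, red GC-2; circles replicate 1, triangles replicate 2). Of the members that passed the test, Perp, Gadd45a, Btg2, Sulf2 and Pltp lay higher on both GC-1 arrays. Rprm, Eda2r, Tnfrsf10b, Ei24, Dram1 and Sesn1, which also passed, lay higher on both GC-2 arrays. In all, the lines did not overlap for 19 of the 31 members, against 77.9% of all genes.

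Among 8 genes of cell cycle arrest and its recovery, Rprm rose while Btg2 and Gadd45a fell. Of all genes tested, 18.3% were higher and 25.7% lower, and these shares apply beside the count of each role below. Rprm, which encodes reprimo, a mediator of arrest in G2, had levels of 0.0183 and 0.0220 in GC-1 and of 1.74 and 0.589 in GC-2. Both GC-2 arrays stood far above both GC-1 arrays, whose signals were 12.2 and 15.2. The change was 5.66 ± 0.53 (limma, adjusted p = 0.00110). It was 4.88 without GC-2 replicate 1 and 6.44 without GC-2 replicate 2, 3.45 with normexp background correction and 3.59 scaled to the spike-in probes, past the threshold each time. Its probe lies on chromosome 2, 53936668 to 53936727 (mm9, the build of all probe positions here).

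Btg2, an antiproliferative gene that slows entry into S phase, had levels of 5.97 and 7.73 in GC-1 and of 0.813 and 0.919 in GC-2. The lines were well apart, and the change was -2.97 ± 0.26 (limma, adjusted p = 0.000868) at chromosome 1, 135972094 to 135972153. A second Btg2 probe had levels of 1.63 and 3.19 in GC-1 and of 1.38 and 1.92 in GC-2, which overlapped, and stood at -0.49 ± 0.39 (limma, adjusted p = 0.353). Gadd45a, a stress-induced gene that acts on growth arrest and DNA repair, had levels of 21.6 and 16.2 in GC-1 and of 4.93 and 3.19 in GC-2. Its change was -2.23 ± 0.32 (limma, adjusted p = 0.00396) at chromosome 6, 66985376 to 66985435. A dim second probe stood at 0.13 ± 0.32.

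The other 5 genes of this role did not pass. The cyclin G1 gene Ccng1, a classical p53 target that takes part in feedback on p53, stood at -0.32 ± 0.38, with levels of 2.57 and 4.30 in GC-1 and of 3.41 and 2.08 in GC-2. These levels overlapped. The polo-like kinase genes Plk2 and Plk3 stood at -0.57 ± 0.46 and 0.64 ± 0.40, and the microtubule regulator gene Psrc1 at 0.51 ± 0.33. Plk2 had levels of 2.67 and 6.67 on the GC-2 arrays, and without GC-2 replicate 2 its change was -1.23 (limma, adjusted p = 0.0385). Ppm1d, which encodes the phosphatase WIP1 that switches the p53 response off, stood at -0.24 ± 0.31 on its brightest probe. Another Ppm1d probe passed at 1.23 ± 0.23 (limma, adjusted p = 0.00876), with levels of 0.384 and 0.407 in GC-1 and of 0.951 and 0.906 in GC-2.

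Among 10 death receptors and death effectors, 4 rose and 1 fell, beside 18.3% and 25.7% of all genes tested. Perp, which encodes a membrane protein of desmosomes that also takes part in p53-dependent cell death, had levels of 21.4 and 21.4 in GC-1 and of 0.816 and 0.370 in GC-2. It was 38.9-fold lower in GC-2, a change of -5.28 ± 0.41 (limma, adjusted p = 0.000653), the largest fall of any member. Its probe lies on chromosome 10, 18576697 to 18576756.

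Eda2r, the X-linked receptor gene for ectodysplasin A2, was well above background on no GC-1 array and on both GC-2 arrays. Its signals were 5.28 and 2.51 in GC-1 and 145 and 15.8 in GC-2. The GC-2 arrays were both higher but far apart from each other. Set against the lowest signal well above background in GC-1, GC-2 exceeded GC-1 at least 11.1-fold (limma, adjusted p = 0.00504; chromosome X, 94529458 to 94529517). A bound of this kind compares the mean of the brighter line with the detection limit of the dimmer one. The adjusted p beside a bound, here and for probes of Fas, Polk and Cdkn1a, belongs to the fitted change. That change uses GC-1 signals not above background, so this p does not test the bound. The bound of Eda2r was 5.27-fold without GC-2 replicate 1, 23.2-fold without GC-2 replicate 2 and 2.64-fold scaled to the spike-in probes. With normexp background correction the fitted change was 2.10 (limma, adjusted p = 0.000291). Its other 2 probes were not tested, since neither line had them well above background on both of its arrays.

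Tnfrsf10b, the mouse receptor for the death ligand TRAIL, had levels of 0.845 and 0.861 in GC-1 and of 4.87 and 3.26 in GC-2. Both GC-2 arrays were higher, by 2.22 ± 0.28 (limma, adjusted p = 0.00282; chromosome 14, 70184141 to 70184200). A second probe was also higher in GC-2 (limma, adjusted p = 0.000411), with signals of 11.8 and 10.2 in GC-1 and of 107 and 42.0 in GC-2. It was well above background on 1 of the 2 GC-1 arrays, and its fitted change of 3.85 ± 0.25 uses a value below that limit. Scaled to the spike-in probes the change of the brighter probe was 0.16 (adjusted p = 0.721). Ei24, an endoplasmic reticulum gene induced by p53, had levels of 1.04 and 1.04 in GC-1 and of 4.48 and 2.66 in GC-2, a change of 1.73 ± 0.32 (adjusted p = 0.00876; chromosome 9, 36587150 to 36587209). Without GC-1 replicate 1 its adjusted p was 0.0575, without GC-1 replicate 2 it was 0.0536, and scaled to the spike-in probes its change was -0.33. Its dimmer probes did not pass, at 0.74 ± 0.36 and 1.23 ± 0.43 (adjusted p = 0.148 and 0.0653).

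Dram1, a lysosomal gene that links p53 to autophagy, had levels of 0.317 and 0.181 in GC-1 and of 0.605 and 0.472 in GC-2. The rise of 1.16 ± 0.35 passed narrowly (limma, adjusted p = 0.0415; chromosome 10, 87786168 to 87786227). The adjusted p was 0.144 without GC-1 replicate 2, 0.140 without GC-2 replicate 1 and 0.0768 without GC-2 replicate 2. Scaled to the spike-in probes the change was -0.91.

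The other 5 members of this role had changes between -0.56 and -0.01 on their brightest probes. Phlda3, which restrains the kinase AKT, stood at -0.56 ± 0.34, with levels of 60.6 and 64.1 in GC-1 and of 56.8 and 31.4 in GC-2. The nuclease gene Aen stood at -0.14 ± 0.31, the p53 co-regulator gene Trp53inp1 at -0.08 ± 0.41 and the RNA-binding zinc finger gene Zmat3 at -0.01 ± 0.35. A dim Trp53inp1 probe was not past the threshold (0.195 and 0.0955 in GC-1, 0.250 and 0.305 in GC-2; limma, adjusted p = 0.0856). Of 5 Aen probes, 1 passed, at 1.2 ± 0.31 (adjusted p = 0.0270), with levels of 0.750 and 1.03 in GC-1 and of 2.46 and 1.66 in GC-2. The brightest 2 overlap each other in the genome and stood at -0.14 and -0.08.

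Fas, the receptor for the Fas ligand, gave a different answer with each of its 3 probes. To show what each probe reads, the first 30 of their 60 bases follow, all in lower case since no part is marked.
Fas probe A_55_P2091676: gaagaccttccattgatggacagttctttt
Fas probe A_52_P73385: ggagagactctttaaaatgaaaacacaata
Fas probe A_55_P2745482: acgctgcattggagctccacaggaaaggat

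The first of these, designed on Fas transcript variant 1 (chromosome 19, 34402164 to 34402223), had levels of 4.45 and 5.60 in GC-1 and of 4.71 and 2.67 in GC-2. They overlapped, and the change of -0.49 ± 0.35 did not pass (limma, adjusted p = 0.293). The second, on transcript variant 2 (chromosome 19, 34383733 to 34383792), was above background on no GC-1 array, with signals of 83.5 and 24.5 in GC-2. It was at least 10.4-fold higher there (adjusted p = 0.000326). The third was designed on a Fas messenger RNA that holds an ETn retrotransposon repeat, and the scanner files place it on chromosome 4 (40555124 to 40555183), not at Fas. It fell from levels of 1.23 and 1.85 to 0.263 and 0.326, by a log2 change of -2.37 ± 0.30 (limma, adjusted p = 0.00276). Whether this probe read Fas or copies of the repeat elsewhere was not tested.

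**Figure D2:**
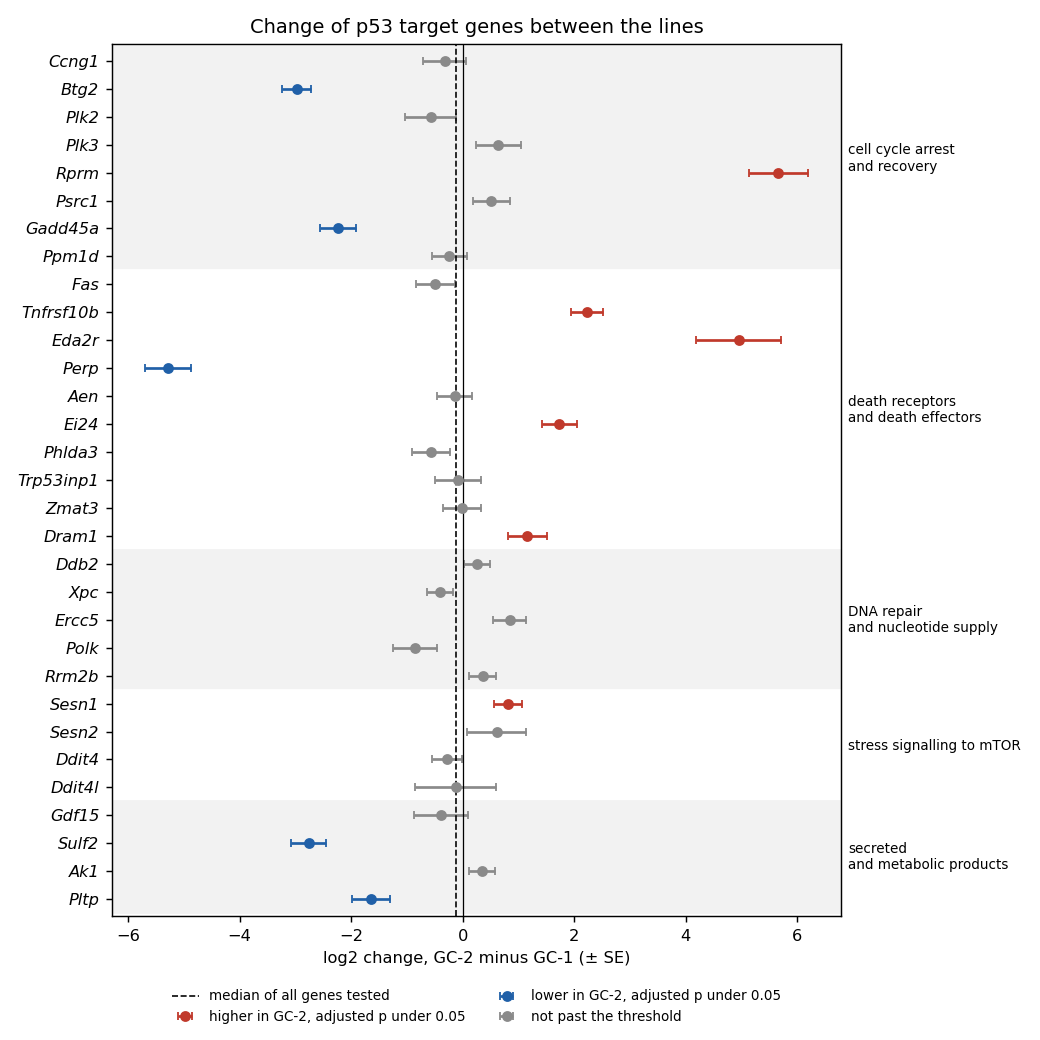
Points are the log2 change of each p53 target gene on its brightest tested probe, GC-2 minus GC-1, with bars of 1 SE (n = 2 arrays per line), red for higher and blue for lower at an adjusted p under 0.05. The dashed line is the median of all genes tested, -0.13, and most members lie within 1 log2 unit of it. The point of Eda2r is fitted against GC-1 signals not above background, where only the bound of at least 11.1-fold is measured.

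None of the 5 genes of DNA repair and nucleotide supply passed limma's threshold on the brightest probe, and 1 of them had an unadjusted p under 0.05. Ddb2, which recognises ultraviolet damage, stood at 0.25 ± 0.23, with levels of 1.60 and 1.47 in GC-1 and of 1.89 and 1.77 in GC-2. Xpc, another damage sensor of nucleotide excision repair, stood at -0.41 ± 0.23, with levels of 1.60 and 1.58 in GC-1 and of 1.12 and 1.27 in GC-2. Rrm2b, a p53-induced subunit of ribonucleotide reductase, stood at 0.36 ± 0.24. The 95% confidence intervals were -0.32 to 0.83, -0.99 to 0.17 and -0.24 to 0.96, so that a change of 2-fold or more lay outside all 3 on this scale.

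Ercc5 and Polk depended on the probe. Ercc5, the excision nuclease XPG, had levels of 0.256 and 0.409 in GC-1 and of 0.590 and 0.568 in GC-2 on its brightest probe, a change of 0.84 ± 0.30 (limma, adjusted p = 0.0702). Its other 2 probes passed in the opposite direction, at -1.80 ± 0.36 (limma, adjusted p = 0.0109) and -1.52 ± 0.37 (adjusted p = 0.0215). These lie on chromosome 1 at 44220513 to 44220572 and 44206178 to 44206237, and the first at 44231105 to 44231164. Without GC-1 replicate 2 the rise of the brightest probe was 1.18 (adjusted p = 0.0448). Polk, a translesion polymerase gene, stood at -0.85 ± 0.39, with levels of 3.72 and 3.31 in GC-1 and of 2.80 and 1.35 in GC-2. Without GC-2 replicate 1 this was -1.38 (adjusted p = 0.0275). A dim Polk probe that was above background in GC-2 alone was at least 3.65-fold higher there (limma, adjusted p = 0.00697), or 2.84-fold without GC-2 replicate 1. Its signals before scaling overlapped, with 3.85 and 8.70 in GC-1 and 29.3 and 8.54 in GC-2. Scaled to the spike-in probes the bound was -0.20 on the log2 scale, so that it showed no rise.

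Of 12 members with several tested probes, 7 had probes of both signs. For 5 members the brightest probe did not pass while another did. Fas was the only one with probes past the threshold in both directions. Over probes instead of genes, 11 of 50 tested member probes were higher and 8 lower. Of all 36692 probes, 24.1% were higher and 21.6% lower, 45.7% in either direction. The lines did not overlap for 34 of the 50 member probes, against 76.9% of all probes.

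**Figure D3:**
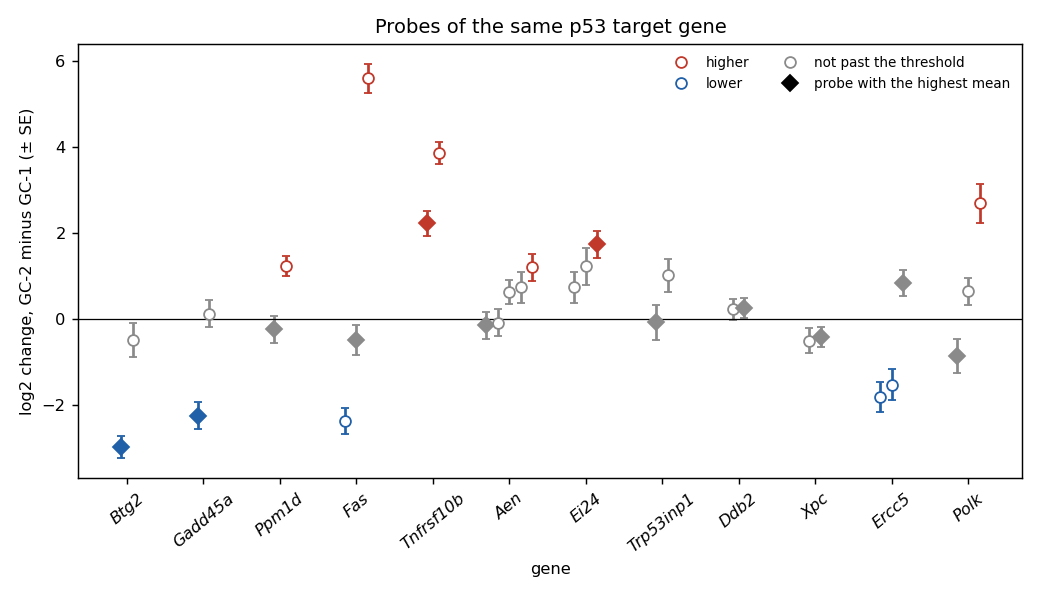
Each point is a tested probe, grouped by gene, at its log2 change between the lines with bars of 1 SE (red higher, blue lower, grey not past the threshold), and diamonds mark the probe with the highest mean. Ercc5 spans from -1.80 to 0.84 and Fas has probes past the threshold on both sides. The highest points of Fas and Polk are fitted against GC-1 signals not above background, so only the bounds of at least 10.4-fold and 3.65-fold are measured there.

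Among 4 genes that signal stress to the mTOR kinase, Sesn1 rose and 3 did not pass, and 0 fell at an unadjusted p under 0.05. Sesn1 encodes a sestrin, which restrains mTOR complex 1 when amino acids are short or p53 is active. It had levels of 3.79 and 3.0 in GC-1 and of 5.77 and 6.08 in GC-2. Both GC-2 arrays were higher, by 0.81 ± 0.25 (limma, adjusted p = 0.0437; chromosome 10, 41628000 to 41628059). The call rests on all 4 arrays, since the adjusted p lay between 0.0693 and 0.148 without any 1 of them, and scaled to the spike-in probes the change was -1.26. Its relative Sesn2 had levels of 1.61 and 4.44 in GC-1 and of 5.04 and 3.32 in GC-2, which overlapped, and stood at 0.61 ± 0.53. Ddit4, which encodes the mTOR inhibitor REDD1, stood at -0.28 ± 0.27 with levels of 32.0 and 31.6 in GC-1 and of 31.4 and 22.0 in GC-2. Ddit4l, its paralog, had the largest SE among members that did not pass, -0.12 ± 0.73, with levels of 1.46 and 0.355 on the GC-2 arrays.

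Among 4 genes for secreted and metabolic products, Sulf2 and Pltp fell, and 0 rose at an unadjusted p under 0.05. Sulf2, an extracellular sulfatase that trims heparan sulfate, had levels of 8.63 and 12.8 in GC-1 and of 1.82 and 1.32 in GC-2. The change was -2.76 ± 0.32 (limma, adjusted p = 0.00200; chromosome 2, 165899667 to 165899726). Pltp, the phospholipid transfer protein, had levels of 0.546 and 0.996 in GC-1 and of 0.229 and 0.242 in GC-2, a change of -1.65 ± 0.35 (adjusted p = 0.0135; chromosome 2, 164665022 to 164665081), or -1.01 with normexp background correction. Both genes were lower on both GC-2 arrays. Gdf15, a stress-induced cytokine, stood at -0.39 ± 0.49 with levels of 2.04 and 1.04 in GC-1 and of 1.60 and 0.770 in GC-2, which overlapped. The adenylate kinase gene Ak1 stood at 0.35 ± 0.23, with 95% limits of -0.22 and 0.91.

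**Figure D4:**
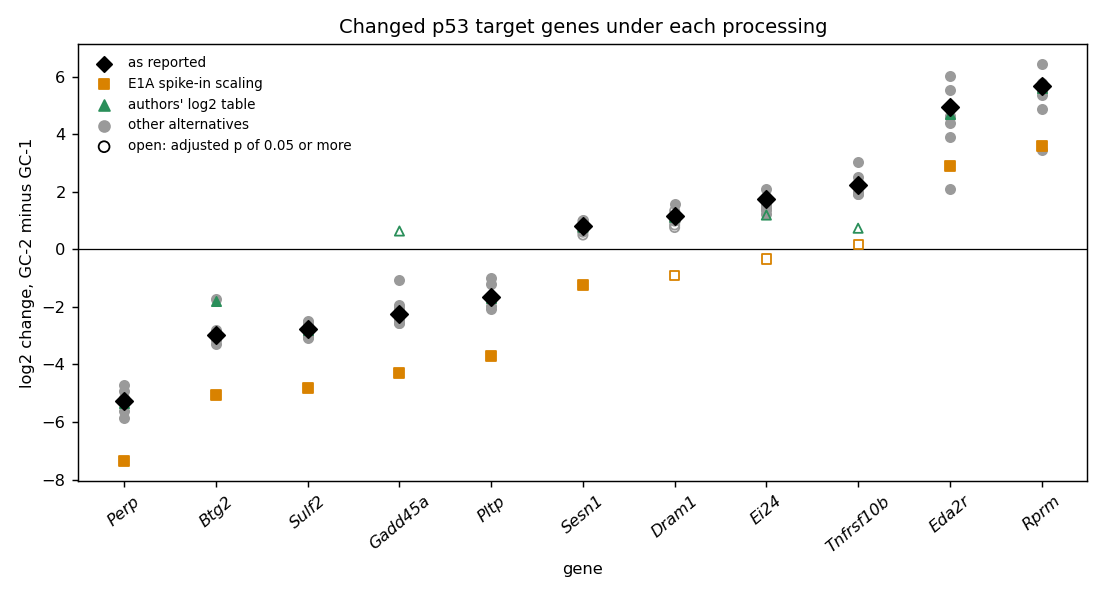
Each column is a member that passed the test, and each symbol its log2 change, GC-2 minus GC-1, as reported (black diamond), scaled to the E1A spike-in probes (orange square), from the authors' log2 table (green triangle) or under another alternative (grey circle), open where the adjusted p was 0.05 or more. Sesn1, Dram1 and Ei24 fall to -1.26, -0.91 and -0.33 with spike-in scaling, and Gadd45a stands at 0.64 in the authors' table.

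The 20 members that did not pass had changes between -0.85 and 0.84, 7 of them positive and 13 negative. For 13 of these the 95% interval still held a 2-fold change in 1 direction or the other. These values do not show that such genes were equal in both lines.

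The replicates of GC-2 differed from each other over most of the members. On GC-2 replicate 1, 24 of 31 members had a higher level than on replicate 2, with a median difference of 0.58 log2. Over all 17437 genes 48.4% were higher on replicate 1, with a median difference of -0.01. Over the 9353 genes with a mean level above the 75th percentile these values were 54.5% and 0.03. In GC-1, 19 of 31 members were higher on replicate 1, with a median difference of 0.02. The median size of the difference, whatever its sign, was 0.58 for members in GC-2 and 0.34 in GC-1, against 0.25 and 0.28 for all genes. The largest differences in GC-2 were those of Eda2r, Ddit4l and Rprm. The 2 GC-2 arrays also differed in brightness, with 75th percentiles of 416 and 199.9, and the part of this in the difference was not tested. Phlda3, Mdm2 and Cdkn1a, all well above background, had levels of 56.8, 56.7 and 8.67 on replicate 1 and of 31.4, 29.7 and 4.11 on replicate 2. Plk2, Plk3 and Ak1, also well above background, went the other way. Their levels were 2.67, 4.87 and 20.3 on replicate 1 and 6.67, 6.13 and 21.9 on replicate 2.

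**Figure D5:**
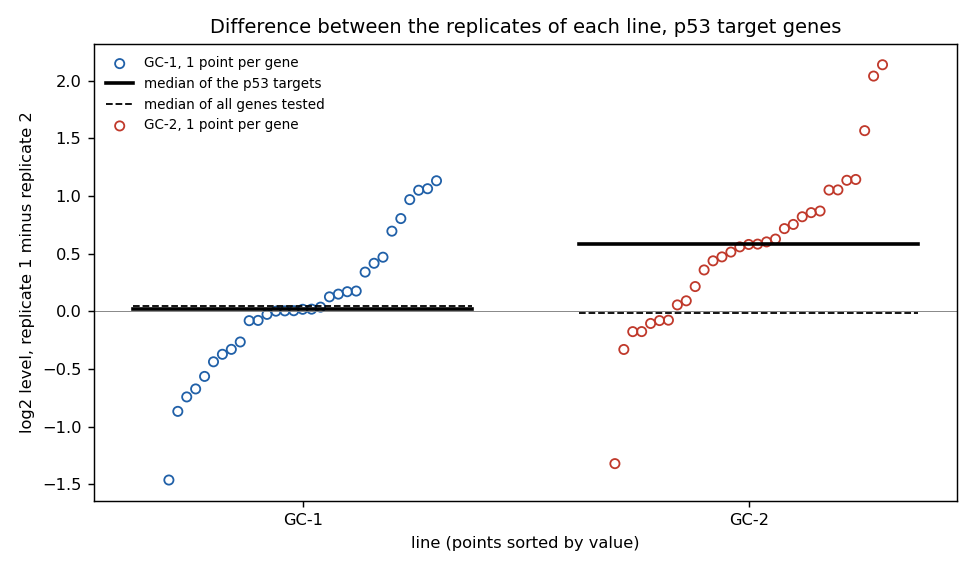
Each circle is a p53 target gene at its log2 level on replicate 1 minus replicate 2 of the same line, sorted within each line, with the members' median as a solid line and that of all genes tested as a dashed line. In GC-2 the members' median is 0.58 while that of all genes is -0.01, and in GC-1 the lines lie at 0.02 and 0.04.

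Other genes of the p53 pathway included some that rose and some that fell. Of 40 regulators, partners and further targets, all tested, 5 rose (12.5%) and 8 fell (20.0%), with a median change of -0.11. These 32.5% called in either direction stand beside 44.1% of all genes, of which 18.3% rose and 25.7% fell with a median of -0.13. The counts depend on the probe used. With the mean of a gene's tested probes 10 pathway genes rose and 6 fell, beside 3943 and 3890 of all 17437 genes. Leaving out any 1 array gave no more pathway calls in either direction on the brightest probes, and fewer calls over all genes in both. Trp53 itself had levels of 0.744 and 3.05 in GC-1 and of 34.6 and 29.0 in GC-2, a change of 4.39 ± 0.66 (limma, adjusted p = 0.00462). The GC-1 arrays were apart, and the change was 3.38 when GC-1 replicate 1 was left out and 5.41 when GC-1 replicate 2 was. Whether the probe read the introduced p53 or the cell's own gene cannot be told apart.

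Mdm2 and Cdkn1a, widely used readouts of p53, did not pass on their brightest probes, but each had a dimmer probe that did. Mdm2, which encodes the ligase that degrades p53, had levels of 28.1 and 21.6 in GC-1 and of 56.7 and 29.7 in GC-2, a change of 0.74 ± 0.38. A second Mdm2 probe, with levels of 0.282 and 0.168 in GC-1 and of 0.563 and 0.579 in GC-2, rose by 1.39 ± 0.32 (limma, adjusted p = 0.0177). Cdkn1a, which encodes the cell cycle inhibitor p21, had levels of 4.04 and 4.81 in GC-1 and of 8.67 and 4.11 in GC-2, which overlapped, a change of 0.44 ± 0.40. Another Cdkn1a probe was above background in GC-2 alone and at least 3.36-fold higher there (limma, adjusted p = 0.0156), or 2.29-fold without GC-2 replicate 2, and with spike-in scaling it gave no bound above 1.

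Beside Trp53, the pathway genes that rose were Thbs1, an antiangiogenic matrix protein gene, the 14-3-3 gene Sfn, the BH3-only gene Bid and the DNA damage kinase gene Atm. Thbs1 had levels of 0.850 and 2.15 in GC-1 and of 18.0 and 7.31 in GC-2, a change of 3.08 ± 0.61 (limma, adjusted p = 0.0108). It did not pass without GC-1 replicate 1 (2.41, adjusted p = 0.0657), and it was 3.75 without GC-1 replicate 2, 2.44 without GC-2 replicate 1 and 3.73 without GC-2 replicate 2. A second, dimmer Thbs1 probe changed by 5.45 ± 0.30 (limma, adjusted p = 0.000276), with levels of 0.0417 and 0.0562 in GC-1 and of 2.54 and 1.76 in GC-2. Sfn changed by 2.47 ± 0.24 (limma, adjusted p = 0.00126). A second Atm probe passed at 1.72 ± 0.26 (limma, adjusted p = 0.00487), and a dim second Bid probe did not, at 0.44 ± 0.28. On their brightest probes Bid and Atm changed by 1.1 ± 0.25 and 1.09 ± 0.25 (adjusted p = 0.0179 and 0.0177). Both lost their calls without GC-1 replicate 1 (0.0792 and 0.0802), without GC-2 replicate 1 (0.0625 and 0.0674) and without GC-2 replicate 2 (0.0639 and 0.0563).

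The largest falls in this list were those of Igfbp3, Pmaip1, Ppp1r13b and Ccng2. Igfbp3, a binding protein that limits insulin-like growth factors, had levels of 11.3 and 11.4 in GC-1 and of 0.316 and 0.540 in GC-2, a change of -4.78 ± 0.32 (limma, adjusted p = 0.000435). Pmaip1, the BH3-only gene for NOXA, changed by -2.81 ± 0.43 (limma, adjusted p = 0.00486). Ppp1r13b, which encodes the p53 cofactor ASPP1, changed by -2.00 ± 0.25, and the cyclin G2 gene Ccng2 by -1.60 ± 0.24.

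The labels call both lines germ cell lines. Of 15 germ cell markers, GC-1 had 10 well above background in both replicates and GC-2 had 8, and Dazl and Kit were above it on no array. Stra8, Sycp1 and Sycp3 were not above it on both arrays of either line. The summed level of the 15 markers was 23.7 and 11.1 in GC-1 and 4.88 and 5.19 in GC-2. Marker sums of other cell types also differed between the lines. Such a sum adds probes of different genes, also those not above background, and is set mostly by its brightest markers. It does not show that the markers of a cell type differed together. Over 6 Sertoli cell markers the summed level was 137 and 109 in GC-1 and 5.29 and 5.75 in GC-2. Of these, Amh and Cldn11 were above background on no array. For 7 fibroblast markers the sum was 282 and 380 against 170 and 129, with Lum on no array. For 4 macrophage markers it was 26.5 and 15.9 against 4.68 and 5.24, with Adgre1 on no array. For 5 Leydig cell markers it was 0.249 and 0.272 against 1.70 and 2.73, with Hsd3b1 and Lhcgr on no array. Their part in the changes of the p53 targets was not tested.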

How the data were processed

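RNA of GC-1 and GC-2 (2 arrays each) was labelled with Cy3 and hybridised to Agilent arrays. Per the file headers, Agilent Feature Extraction 11.5.1.1 gave each spot a deposited intensity, background-subtracted and detrended within the array, with surrogate values for spots not above background. The authors' series table holds log2 values.

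From these, a probe's value was the mean log2 processed intensity of its spots, leaving out 92 to 224 outlier spots on each array, and the 75th percentile of the array was subtracted. A probe was tested if both arrays of GC-1, or both of GC-2, had it well above background, with limma 3.58.1 in R 4.3.3. The fit was tested on simulated data. All 4 arrays lay on 1 slide, with each line in its own row, so slide row and line cannot be told apart. Probes were named through the RefSeq table of GRCm38.p6 for the count over all genes, and members by the gene name in the files. No coordinate was moved between builds.

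The members, the pathway and marker lists, and the alternatives were chosen with earlier results of these data known. All 31 members are accounted for. From the pathway list Trp53, Mdm2, Cdkn1a and up to 4 called genes per direction with the largest changes are named. Phlda3, the mention of Mdm2 and Cdkn1a beside it, and the reverse cases Plk2, Plk3 and Ak1 were chosen for the replicate comparison after their values were seen. Alternatives covered background correction, scaling, the filter, the replicate block, the probe summary, the authors' table and leaving out each array.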

Additional observations from a re-analysis of the deposited data

How the results depend on the processing

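Of the 11 members called, Perp, Btg2, Sulf2, Pltp, Rprm and Eda2r kept call and direction in every alternative that gave a value. Eda2r gave none with the filter on all 4 arrays, and its call elsewhere uses GC-1 signals not above background. Leaving out 1 array in turn gave 4 members higher each time and 5 to 6 lower, 2 to 5 pathway genes higher and 4 to 7 lower, and a members' median of -0.43 to 0.29 beside -0.16 to -0.10 for all genes. Scaled to the spike-in probes, 2 members were higher and 26 lower, and 1 pathway gene was higher and 36 lower. Of all 17437 genes 644 were higher and 15156 lower with this scaling, and the median was -2.19 for members and for all genes. There the changes of Plk3 (-1.43), Psrc1 (-1.56), Ei24 (-0.33), Dram1 (-0.91), Ddb2 (-1.81), Ercc5 (-1.23), Rrm2b (-1.71), Sesn1 (-1.26), Sesn2 (-1.45), Ak1 (-1.72), Mdm2 (-1.33), Cdkn1a (-1.63), Bid (-0.97) and Atm (-0.98) turned negative. The authors' table gave 2 members higher and 6 lower, and 7 pathway genes higher and 5 lower. Of 17403 genes 3083 were higher and 3407 lower in that table. The members' median was there 0.19 (all genes -0.01), with Gadd45a at 0.64 and Ercc5 at -0.87. The mean of a gene's probes gave 10 pathway genes higher and 6 lower, beside 3943 and 3890 of all 17437 genes. The members' median was then 0.35 (all genes 0.03), with Btg2 at -1.73, Gadd45a at -1.05, Tnfrsf10b at 3.04, Fas at 0.91 and Ercc5 at -0.83. Median scaling gave 3 pathway genes higher and 11 lower, beside 2273 and 5848 of all 17437 genes. The members' median was then -0.44, as for all genes. No filter gave 3 pathway genes higher and 5 lower, beside 2793 and 3268 of 24804 genes. The cause was not tested, except that the spike-in scaling moves every probe by the same amount. Deviations of same-numbered arrays correlated at 0.15 over 30316 probes, with only 2 pairs, so the numbers were not taken to pair the arrays. With the replicate block 5 members were higher and 5 lower, beside 3255 and 4542 of all 17437 genes. Sesn1 did not pass there (limma, adjusted p = 0.0543). Signal over background limits Eda2r, Rprm and the dim probes of Fas and Polk.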

Other observations

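In the authors' deposited table, members with several probes stand at the mean log2 of those probes that were well above background on that array, plus a constant per array. For 54 of 54 such gene and array values this held within 0.00378. In 5 of 14 such members the number of probes entering the mean differed between arrays. For Gadd45a, the authors' deposited table gives -0.22 and -0.16 in GC-1 and -0.92 and 1.81 in GC-2, while its bright probe alone was lower on both GC-2 arrays. From that table Gadd45a changed by 0.64 (limma, adjusted p = 0.627) against -2.23 on the bright probe, and Tnfrsf10b by 0.73 (adjusted p = 0.604) against 2.22.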
